A study of Arabidopsis thaliana with 12 samples.

Results

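The genes described here are 61 named Arabidopsis genes whose array signal was at least doubled in plants treated with the herbicide bromoxynil, of 692 probes that name a single gene. They were chosen by the values themselves. Intensities of 0 were given the smallest positive intensity found on their array, all values were taken as log2, and the 12 arrays were quantile-normalised, which gives every array the same distribution. A gene was kept when its lowest value with bromoxynil lay above its highest value with water and the group means differed by 1 or more on the log2 scale. Probes among the brightest 10% of named probes by mean deposited intensity with water were left out, which removed 5. Another 7 genes were left out by name, among them AT3G52960, a plastid peroxiredoxin. The differences between the groups given below are therefore a description of the chosen genes and carry no test. No measure of these genes that is independent of that choice was at hand for a test between the groups.

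The plants were wild type, of the Landsberg ecotype. The treated group received 500 µM bromoxynil (pBro, 6 arrays) and the control group received water (H2O, 6 arrays). All plants of both groups had been in darkness for 12 h and were sampled 30 min after the light returned. Total RNA was hybridised, and the labels name neither the tissue nor the plants' age nor whether arrays came from separate plants, so the spread between arrays may be technical. Of 10 listed marker genes of green tissue, 5 were measured, but intensities of different probes cannot show which tissue was sampled. In whole plants, more cells with a transcript and more transcript per cell cannot be told apart.

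Bromoxynil is a nitrile herbicide that binds photosystem II and stops electrons from passing to the plastoquinone pool. In the light, this leaves absorbed energy unused, favours the formation of reactive oxygen and withholds reducing power from the chloroplast. Most chloroplast proteins are encoded in the nucleus, and the state of photosynthetic electron transport is one of the signals by which plastids are known to affect nuclear transcripts.

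The deposited intensities are relative values, with the same feature at 100, the highest value, on all 12 arrays. Intensities of different probes depend on the probe, and ranks of brightness serve here only to choose or filter probes. Of the 61 genes, 0 had an intensity of 0 on any array, and 10 were among the dimmest 25% of all 3439 probes. Every probe was assigned its gene through the platform annotation, not through its sequence, so a name may be wrong, and 5 of the 61 genes are also listed on probes that name several genes, which were not used.

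The log2 difference, bromoxynil minus water, ran from 1.0 to 2.97 over the 61 genes, with a median of 1.47, against a median of 0.03 over all named probes. It was 2 or more for 7 genes, between 1.5 and 2 for 22, and under 1.5 for 32. Among all named probes, 10.5% met the 2 conditions on the difference in the upward direction and 8.96% met them in the downward direction. Over all probes, named or not, these shares were 10.1% upward and 10.4% downward. Without the demand of a doubling, 15.2% of named probes and 15.6% of all probes had every bromoxynil value above every water value. By limma's moderated test at an adjusted p under 0.05, 25.9% of named probes were higher and 25.7% lower with bromoxynil, and 24.5% of all probes were higher and 29.9% lower. That balance belongs to the scaling: on the intensities as deposited, 276 named probes were higher and 112 lower, against 179 and 178 on the quantile-normalised values. Most of the 61 genes carry only a locus name in the tables used, and 6 have a symbol of their own. Roles given for the others are general knowledge of the locus. The grouping by role was made after the values were seen. Named probes outside the 61 were not sorted by role, so no count by role can be read as a theme.

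**Figure D1:**
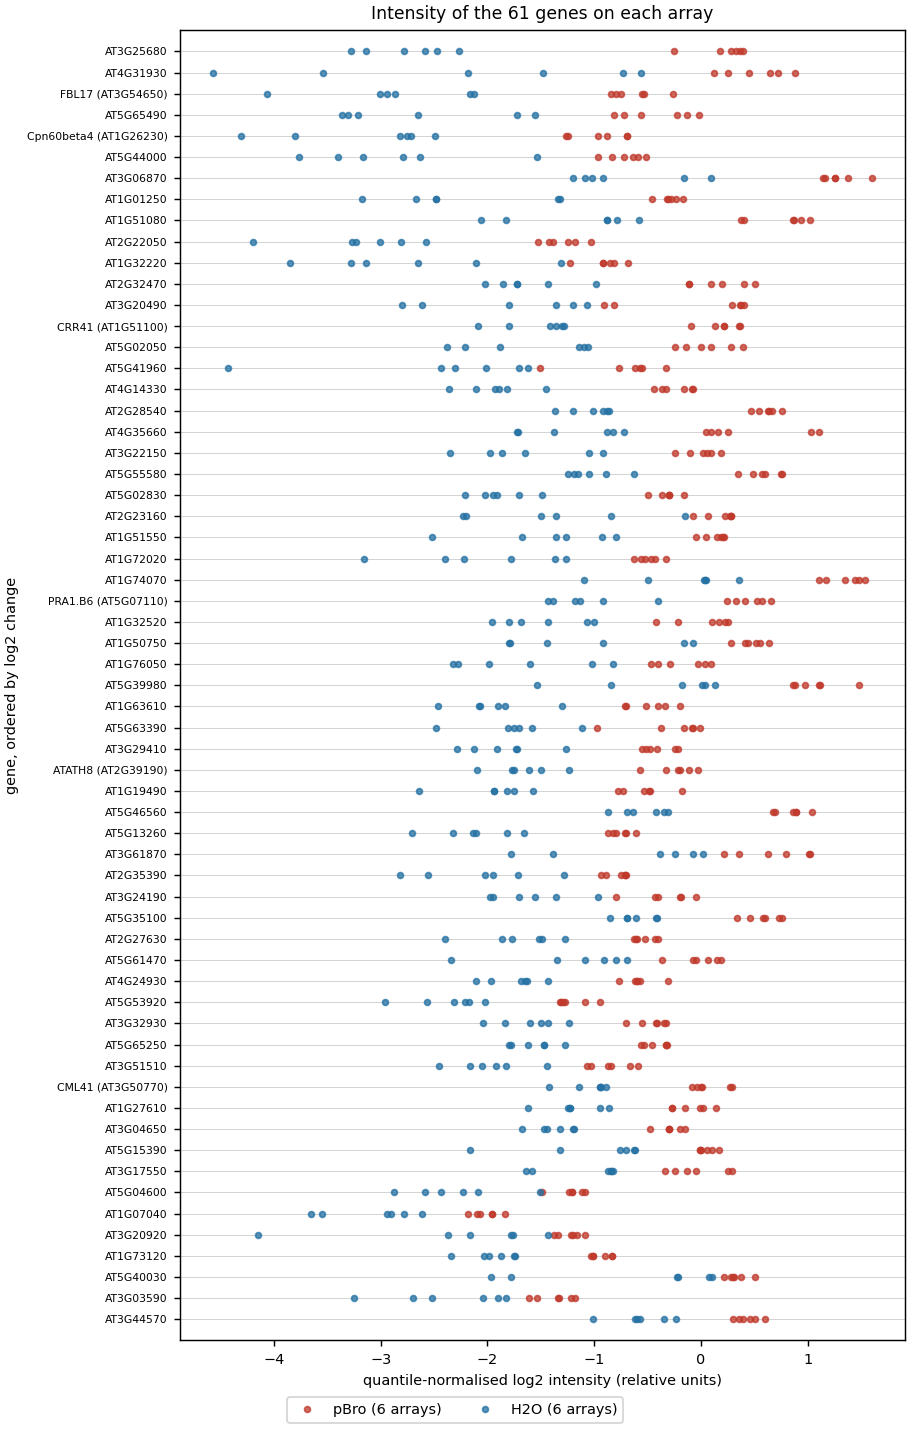
Each row is 1 of the 61 genes, ordered from the highest log2 change at the top, and each point is its quantile-normalised log2 intensity on 1 array, with 6 bromoxynil arrays in red and 6 water arrays in blue. The groups do not overlap in any row because the genes were chosen so, and the red points of most rows lie closer together than the blue ones.

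AT3G25680, a locus without a symbol in the tables, had the largest difference. Its deposited intensity was 0.944 at the lowest, 1.36 at the median and 1.47 at the highest of the 6 bromoxynil arrays, against 0.110, 0.141 and 0.184 on the water arrays. The bromoxynil values are high on 5 arrays and lower on array 6, and even that array is far above every water array. On the normalised scale the difference was 2.97 ± 0.18 (SE, n = 6 per group), or 7.85-fold, and 2.34 when a pseudocount of 0.1 was added to every intensity. Between arrays of the same number it ran from 2.64 to 3.61.

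AT4G31930, which encodes a protein of the mitochondrial glycoprotein family, came next, with a log2 difference of 2.68 ± 0.62 (SE, n = 6 per group). Its intensity was between 1.22 and 1.84 with bromoxynil, with a median of 1.60, and between 0.0483 and 0.605 with water, with a median of 0.245. The water values fell into pairs by array number. They were 0.303 and 0.188 on water arrays 1 and 2, 0.605 and 0.543 on arrays 3 and 4, and 0.0483 and 0.0866 on arrays 5 and 6. Within an array number the log2 difference accordingly ran from 0.80 on number 3 to 5.28 on number 5. The SD of its normalised log2 values was 0.29 over the bromoxynil arrays and 1.60 over the water arrays. The pseudocount brought its difference to 2.08. The SEs given here and below count the 6 arrays of a group as independent. Where consecutive arrays go in pairs, as with water for AT4G31930, the SE may be too small and the precision overstated.

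Genes with a role in the plastid or the photosynthetic membrane made up 8 of the 61, with log2 differences of 1.17 to 2.19. Cpn60beta4 (AT1G26230), a chaperonin subunit known for folding a subunit of the chloroplast NADH dehydrogenase-like (NDH) complex, had intensities of 0.473 to 0.743 with bromoxynil, with a median of 0.628, and of 0.0597 to 0.184 with water, with a median of 0.132. All its bromoxynil values were above all its water values by at least 1.23 on the normalised log2 scale, and the difference of means was 2.19 ± 0.30 (SE, n = 6 per group). The probe is among the dimmest 25%, and the difference was 1.5 with the pseudocount. The NDH complex passes electrons from ferredoxin back to plastoquinone around photosystem I.

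CRR41 (AT1G51100), an assembly factor of the same complex, was at 1.04 to 1.40 with bromoxynil, with a median of 1.31, and at 0.208 to 0.376 with water, with a median of 0.328. The arrays of each group lay close together, and the log2 difference of 1.74 ± 0.15 (SE, n = 6 per group) held at 1.52 or more within every array number. Other genes named for this complex were searched for among the named probes, a search made after the values were seen, and 3 were found outside the 61. CRR21 (AT5G55740), an RNA editing factor for an NDH transcript, had a log2 difference of 0.90 ± 0.24 without overlap of the groups, and of 0.49 after the place adjustment described below. NdhN (AT5G58260), a subunit, had a difference of 0.63 ± 0.43 with overlapping groups, which turned to -0.05 after that adjustment. The subunit NdhS (AT4G23890) is on the list of genes left out by name, but its probe was already left out for its brightness with water. It had a difference of 1.28 ± 0.33, or 1.63 after the adjustment.

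AT1G74070 and AT5G35100 encode cyclophilins, peptidyl-prolyl isomerases that assist protein folding, of the kind found in the thylakoid lumen. AT1G74070 was at 2.16 to 2.69 with bromoxynil, with a median of 2.49, and at 0.382 to 1.20 with water, with a median of 0.909. Its bromoxynil arrays were alike, whereas water arrays 1 and 2 were lower than the other water arrays, so the log2 difference was 2.58 and 2.04 on numbers 1 and 2 and between 1.0 and 1.42 on the others. AT5G35100 was even in both groups, at 1.37 to 1.76 with bromoxynil and 0.496 to 0.638 with water, and its log2 difference of 1.19 ± 0.10 (SE, n = 6 per group) ran only from 1.02 to 1.37 over the array numbers. AT4G24930, a protein of the thylakoid lumen, had a difference of 1.17 ± 0.12.

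ATATH8 (AT2G39190) and AT3G24190 belong to the ABC1-like kinases, several of which sit in plastoglobules, the lipid bodies of the thylakoid. ATATH8 was at 0.766 to 1.12 with bromoxynil, with a median of 1.01, and at 0.200 to 0.382 with water, with a median of 0.277. Its groups were well apart, with a log2 difference of 1.42 ± 0.14 (SE, n = 6 per group). The difference of AT3G24190 was 1.24 ± 0.19. AT1G32220, another protein of plastoglobules, had a larger mean difference, of 1.82 ± 0.36, but water array 1 came within 0.07 of its lowest bromoxynil array on the normalised log2 scale. Its intensities ran from 0.481 to 0.733 with bromoxynil and, more widely, from 0.0738 to 0.336 with water.

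Genes for RNA processing, RNA modification and protein synthesis numbered 9, with log2 differences of 1.06 to 1.66. AT5G55580 (mTERF9), of a family of nucleic acid-binding proteins that act on organelle transcripts, was at 1.39 to 1.79 with bromoxynil, with a median of 1.56, and at 0.357 to 0.543 with water, with a median of 0.422. Both groups were tight, and the difference of 1.61 ± 0.12 (SE, n = 6 per group) ran from 1.38 to 1.85 over the array numbers. AT2G28540, which carries an RNA recognition motif, was at 1.49 to 1.78 with bromoxynil and 0.330 to 0.486 with water. Its log2 difference, 1.66 ± 0.10, had a small SE beside the median SE of 0.19 over the 61 genes, but was 0.97 after the place adjustment.

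Pentatricopeptide repeat proteins bind single organelle transcripts and guide their editing, splicing or stability, and 3 of them, AT3G22150, AT5G02830 and AT5G39980, were among the 61. AT3G22150 had a log2 difference of 1.64 ± 0.22 and AT5G02830 of 1.56 ± 0.11. After the place adjustment these were 1.0 and 0.85. AT5G39980 was at 1.85 to 2.65 with bromoxynil, with a median of 2.05, and at 0.292 to 0.975 with water, with a median of 0.846. As for AT1G74070, water arrays 1 and 2 of AT5G39980 were the lowest of the group, and its log2 difference was 2.66 and 2.32 on numbers 1 and 2 but 0.82 to 1.11 on numbers 3 to 6.

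AT1G76050, a pseudouridine synthase, which modifies uridines in RNA, had a log2 difference of 1.49 ± 0.27, with 0.62 and 0.35 on array numbers 3 and 4. For AT5G15390, a methyltransferase of the family that modifies transfer and ribosomal RNA, the difference was 1.08 ± 0.24. AT5G53920, related to the enzyme that methylates ribosomal protein L11, had a difference of 1.17 ± 0.15. AT5G04600, an RNA-binding protein, had the narrowest gap of all 61 genes, with its lowest bromoxynil array 0.02 above its highest water array.

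Transcription factors, signalling proteins and proteins of cell division numbered 7, with log2 differences of 1.0 to 2.24. FBL17 (AT3G54650), the F-box protein that marks inhibitors of cyclin-dependent kinases for degradation and so lets the cell cycle proceed, was at 0.641 to 0.964 with bromoxynil, with a median of 0.739, and at 0.0807 to 0.200 with water, with a median of 0.135. No water array came near the bromoxynil arrays, and the difference was 2.24 ± 0.29 (SE, n = 6 per group). The FBL17 probe is among the dimmest 25%, and the difference was 1.62 with the pseudocount. AT4G14330, a kinesin of the phragmoplast, the structure that builds the new cell wall at division, had 0.866 to 1.1 with bromoxynil and 0.168 to 0.336 with water, a log2 difference of 1.69 ± 0.14.

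AT1G01250, a transcription factor of the AP2/ERF family, many of whose members act in stress responses, was at 0.811 to 1.05 with bromoxynil, with a median of 0.946, and at 0.106 to 0.335 with water, with a median of 0.183. Its bromoxynil arrays were even, whereas water arrays 1 and 2 were higher than the other 4, so the log2 difference was 1.17 and 1.01 on numbers 1 and 2 and 2.20 to 2.72 on numbers 3 to 6. That order is opposite to the one of AT1G74070 and AT5G39980. The bZIP factor AT1G19490 had a log2 difference of 1.41 ± 0.17 and the zinc finger protein AT5G61470 one of 1.18 ± 0.25.

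CML41 (AT3G50770), a calmodulin-like calcium sensor, was at 1.09 to 1.31 with bromoxynil, with a median of 1.15, and at 0.343 to 0.448 with water, with a median of 0.425. Each group was narrow, and the log2 difference was 1.12 ± 0.11 (SE, n = 6 per group). CML30 (AT2G15680), the other named calmodulin-like gene on the array, had a log2 difference of -0.69 ± 0.12, which turned to 0.09 after the place adjustment. The chaperonin subunit Cpn60beta3 (AT5G56500), a relative of Cpn60beta4, had a log2 difference of 0.11 ± 0.15, which turned to -0.32 after that adjustment. Differences between relatives were not tested, since CML41 and Cpn60beta4 were chosen for being high.

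Metabolic enzymes and proteins of mitochondria and membranes numbered 7, AT4G31930 among them, with log2 differences of 1.04 to 2.68. AT5G44000, of the glutathione S-transferase family, whose members conjugate glutathione to foreign or oxidised compounds, was at 0.582 to 0.834 with bromoxynil, with a median of 0.739, and at 0.0765 to 0.292 with water, with a median of 0.127. Water array 1 was the highest of its group, and the difference was 2.18 ± 0.31 (SE, n = 6 per group), with 0.95 on number 1 and 2.12 to 2.94 on the others. This probe too is among the dimmest 25%, and the pseudocount brought the difference to 1.56. AT5G02050, like AT4G31930 of the mitochondrial glycoprotein family, had a difference of 1.69 ± 0.25.

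PRA1.B6 (AT5G07110), a prenylated Rab acceptor of membrane traffic, was at 1.33 to 1.70 with bromoxynil and 0.324 to 0.645 with water. Its log2 difference was 1.53 ± 0.16, and 0.89 after the place adjustment. Its relative PRA1.B3 (AT5G05380) had a log2 difference of -0.52 ± 0.26, with overlapping groups, and of -1.21 after the adjustment. AT3G29410, a terpene synthase, had a difference of 1.44 ± 0.16. AT2G35390, which makes phosphoribosyl pyrophosphate, the precursor of nucleotides, had one of 1.27 ± 0.22. The difference of AT3G20920, related to the Sec62 protein of transport into the endoplasmic reticulum, was 1.04 ± 0.38, of which 2.99 was seen on number 1 and 0.34 to 1.15 on the others.

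No role is given for the other 30 genes, whose log2 differences ran from 1.0 to 2.97 with a median of 1.46. AT5G65490 was at 0.677 to 1.1 with bromoxynil, with a median of 0.901, and at 0.1 to 0.283 with water, with a median of 0.134, a log2 difference of 2.22 ± 0.34 (SE, n = 6 per group). Its water arrays 1 and 2 were the highest of the group. AT3G06870 was at 2.22 to 2.95 with bromoxynil, with a median of 2.29, and at 0.368 to 0.968 with water, with a median of 0.432, and its difference was 2.02 ± 0.22. Its water arrays 3 and 4 were above the other 4.

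AT1G51080 was at 1.38 to 2.07 with bromoxynil, with a median of 1.85, and at 0.210 to 0.598 with water, with a median of 0.459, a log2 difference of 1.92 ± 0.26. Arrays 5 and 6 were the lowest of both groups. AT1G51080 and CRR41 lie near each other in the genome, with 1 protein-coding gene between them in the RefSeq gene table, and are the closest pair among the 61. The only other pair within 5 positions was AT5G39980 and AT5G40030, with 4 genes between. AT2G22050 was at 0.401 to 0.577 with bromoxynil, with a median of 0.472, and at 0.0615 to 0.147 with water, with a median of 0.122, a difference of 1.88 ± 0.23, or 1.25 with the pseudocount. AT5G46560 was at 1.66 to 2.08 with bromoxynil, with a median of 1.86, and at 0.465 to 0.686 with water, with a median of 0.607, a difference of 1.39 ± 0.11. No array of either group stood apart for AT5G46560, but after the place adjustment its difference was 0.65 and its groups overlapped.

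AT2G32470, AT3G20490, AT5G41960, AT4G35660, AT2G23160, AT1G51550, AT1G72020, AT1G32520 and AT1G50750 followed, with log2 differences of 1.78 for AT2G32470 to 1.5 for AT1G50750. AT2G32470 fell by pairs of bromoxynil arrays, from 1.48 and 1.55 on arrays 1 and 2 to 1.20 and 1.28 on arrays 3 and 4. It was at 1.02 and 1.03 on bromoxynil arrays 5 and 6, and at 0.216 to 0.421 with water. AT1G50750 was at 1.31 to 1.70 with bromoxynil, against 0.797 and 0.842 on water arrays 3 and 4 and 0.246 to 0.428 on the other water arrays. AT4G35660, with a difference of 1.65 ± 0.26, was at 2.15 and 2.07 on bromoxynil arrays 1 and 2 and 1.13 to 1.30 on the other bromoxynil arrays, against 0.257 to 0.512 with water. AT2G23160 was raised on water array 4, at 0.801, so its groups were only 0.08 apart on the normalised log2 scale, and its difference within numbers ran from 0.43 to 2.51. In AT3G20490, water and bromoxynil arrays moved together, and although the SE was 0.38, the difference stayed between 1.45 and 2.20 in every number.

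AT1G63610, AT5G63390, AT5G13260 and AT3G61870 had log2 differences of 1.46, 1.46, 1.37 and 1.32. AT3G61870 was at 1.32 to 2.01 with bromoxynil and 0.249 to 0.892 with water, where arrays 1 and 2 were the lowest. Another 9, AT2G27630, AT3G32930, AT5G65250, AT3G51510, AT1G27610, AT3G04650, AT3G17550, AT1G07040 and AT1G73120, lay between 1.19 for AT2G27630 and 1.02 for AT1G73120. AT5G65250, AT3G04650 and AT1G73120 had the smallest SEs of the 9, each 0.10. After the place adjustment their differences were 0.75, 0.33 and 0.38, and the groups of AT3G04650 and AT1G73120 overlapped. AT1G07040 was dim, at 0.239 to 0.312 with bromoxynil and 0.0741 to 0.170 with water, and all its arrays kept the order of the groups.

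At the threshold of 1, the genes just inside and just outside did not form separate sets. AT5G40030, a protein kinase, AT3G03590 and AT3G44570 were the last to be included, with log2 differences of 1.002, 1.001 and 1.001. The first to be left out without overlap were AT1G22040 at 0.997, AT5G42680 at 0.993 and AT1G18060 at 0.983. AT5G40030 had 1.31 to 1.52 with bromoxynil and 0.220 to 0.946 with water, and its difference rested on water arrays 1 and 2, at 0.220 and 0.25, against 0.763 to 0.946 on the others. AT3G44570 was at 1.32 to 1.64 with bromoxynil and 0.415 to 0.723 with water. For AT3G03590 the intensities were 0.370 to 0.502 with bromoxynil and 0.104 to 0.257 with water. On the normalised log2 scale, AT1G22040 ran from 0.13 to 0.52 with bromoxynil and from -1.43 to 0.11 with water. AT5G42680 was at 0.73 to 0.94 with bromoxynil and -0.43 to 0.13 with water, and AT1G18060 at -0.85 to -0.32 with bromoxynil and -2.32 to -1.14 with water. Another 27 named probes had a difference of 1 or more but overlapping groups, and 10 of these had a zero on at least 1 array, which the log2 scale turns into a very low value.

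The 61 genes were followed within array numbers, because a bromoxynil array and the water array that shares its number departed from the means of their groups alike, with correlations of 0.323 to 0.418 across all probes. The labels do not say what a number stands for. That all 61 genes were higher with bromoxynil in each of the 6 numbers is fixed by the choice of genes without overlap. The median difference of the 61 was lowest on number 3, at 1.25, and highest on number 5, at 1.59. A difference of 1 or more in all 6 numbers was seen for 23 of the 61 genes, beside 4.62% of all named probes. The choice of genes by a mean difference of 1 or more without overlap raises this share, so the contrast is no finding about them. The larger differences lay on numbers 5 and 6 for 31 genes, on 1 and 2 for 20 and on 3 and 4 for 10, whereas all named probes split nearly evenly, at 35.1%, 31.5% and 33.4%.

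**Figure D2:**
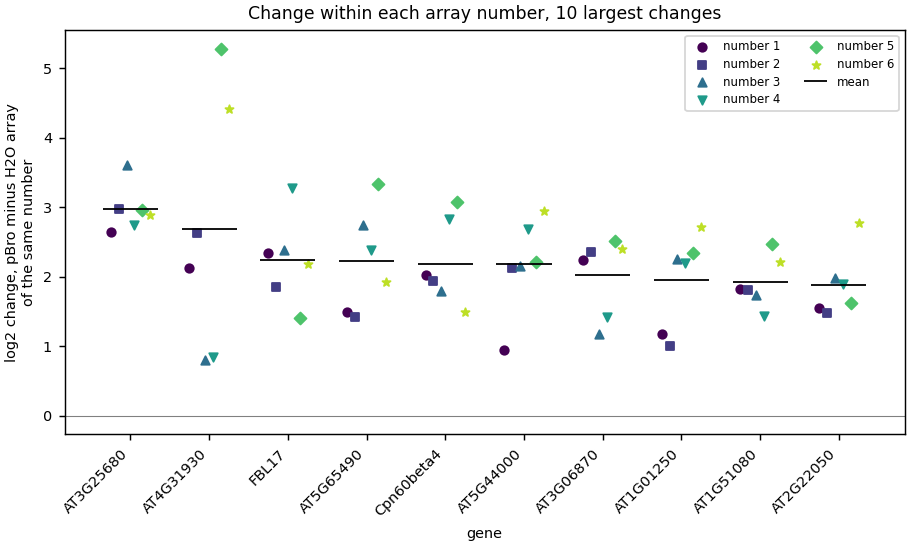
For the 10 genes with the largest differences, each point is the log2 difference between the bromoxynil array and the water array of 1 number, and the black line is the mean. AT3G25680 keeps all 6 numbers between 2.64 and 3.61, whereas AT4G31930 ranges from 0.80 to 5.28, with its numbers in pairs.

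On the normalised log2 scale, the water arrays carried most of the variation among numbers. The median normalised log2 value of the 61 genes stayed between -0.30 and -0.11 on the 6 bromoxynil arrays, against -1.78 to -1.43 on the 6 water arrays. It was higher on water arrays 3 and 4, at -1.44 and -1.43, than on water arrays 5 and 6, at -1.76 and -1.78. The median of all named probes lay between -0.92 and -0.87 on the bromoxynil arrays and between -1.0 and -0.97 on the water arrays. On that scale, the SD over arrays was larger with water than with bromoxynil for 60 of the 61 genes (98.4%), the exception being AT4G35660. Among all named probes this was so for 71.5%, and among the 62 named probes that were at least halved without overlap, for 37.1%. The median SD of the 61 genes was 0.16 with bromoxynil and 0.44 with water. For the 62 halved probes it was 0.32 with bromoxynil and 0.24 with water, so in both sets the group with the lower values had the wider spread. The log2 scale widens the spread of low intensities. On the deposited intensities the order was reversed for most of the 61 genes, whose SD was larger with bromoxynil. The median deposited intensity of the 61 genes ran from 0.909 to 1.07 over the bromoxynil arrays and from 0.249 to 0.34 over the water arrays. The SD of deposited intensities was 0.194 with bromoxynil and 0.0305 with water for AT3G25680. For AT1G74070, which kept the order of the log2 scale, it was 0.198 and 0.289.

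**Figure D3:**
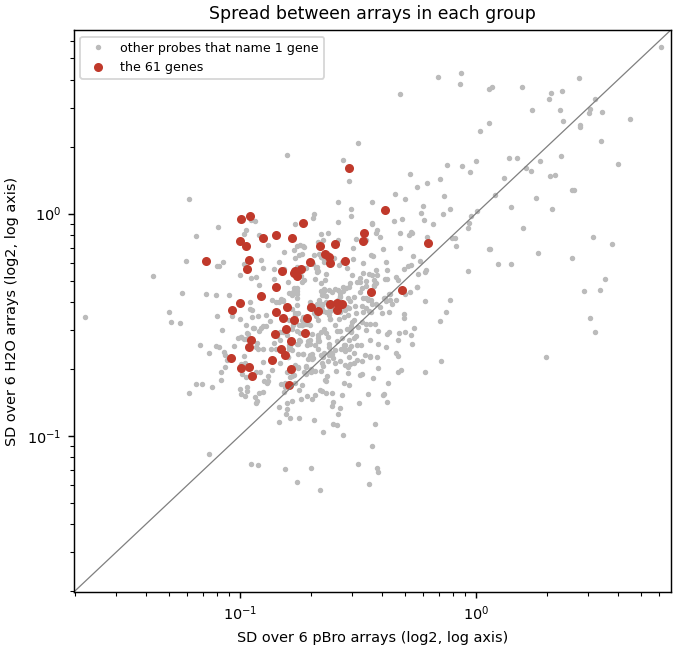
Each point is 1 named probe, with the SD over 6 bromoxynil arrays on the x axis and over 6 water arrays on the y axis, both on the log2 scale and on log axes; the 61 genes are red, and 20 probes with an SD of 0 in a group are not drawn. Of the red points, 60 lie above the line of equal spread, where 71.5% of all named probes lie.

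The choice of the 61 genes moved with the order of the probe numbers, and the part of that order in the choice was not tested. Probe numbers show a repeat of 288 in the differences between water arrays, so each number has a place within that repeat. Of the repeat lengths searched, this one had the highest autocorrelation, at 0.282. Physical positions of the probes were not used. In 12 equal stretches of the repeat, the median log2 difference of named probes ran from -0.76 at places 1 to 24 to 0.53 at places 217 to 240. Places 1 to 72 and 265 to 288 hold 191 named probes and 0 of the 61 genes. The other 8 stretches hold 501 named probes and all 61 genes, which is 12.2%. The stretch at places 121 to 144 had the highest share, with 9 of 51, or 17.6%. FBL17, Cpn60beta4, AT1G32520 and AT3G06870 share place 148. Other named probes at that place were AT4G17260, with a log2 difference of -0.511, and AT1G35340, with 0.541. The adjustment below uses the median within 6 places, so it may not remove a difference confined to a single place. The median difference of the probes around the place of a member was above 0 for 57 of the 61 genes, against 56.8% of all named probes.

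**Figure D4:**
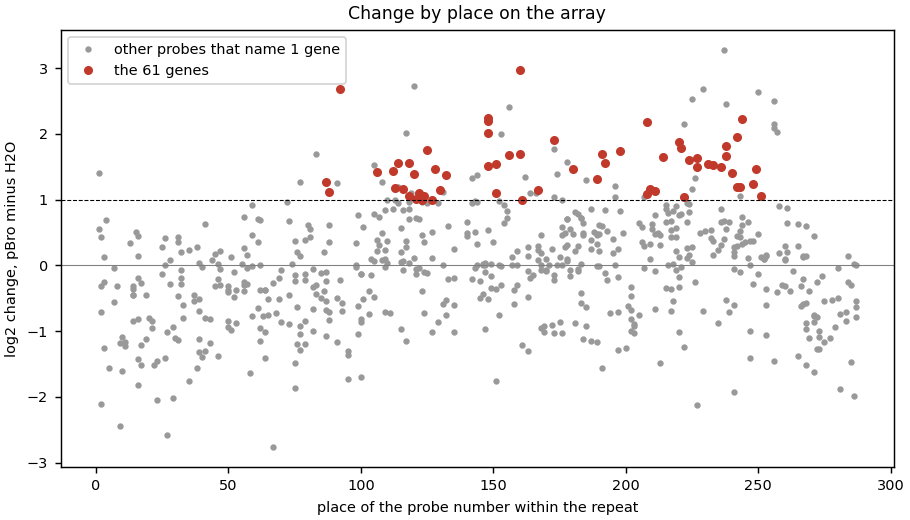
Each point is the log2 difference, bromoxynil minus water, of 1 named probe against the place of its number in the repeat of 288, with the 61 genes in red and the selection threshold of 1 dashed. Grey points sink below 0 at both ends of the repeat, where no red point lies.

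Place adjustment subtracted, on each array, the median of neighbouring places and then the median of each of 12 columns, made of every 12th probe number. Before it, the median log2 difference of named probes ran from -0.17 to 0.82 over the columns. The 61 genes held 1 of 61 named probes in column 1 and 13 of 79 in column 4. After the adjustment, all 61 genes still had a difference above 0, which ran from 0.28 to 3.04 with a median of 0.97. Among all named probes, 48% were above 0 after that adjustment. The difference stayed at 1 or more for 28 of the 61 genes, beside 9.68% of named probes, and 23 of these 28 also kept the groups apart, beside 6.21%. By limma at an adjusted p under 0.05, 54 of the 61 were higher after the adjustment, beside 21.1% of named probes. With consecutive numbers averaged and the array number as a block as well, 36 of the 61 were, beside 13% of named probes. These counts come from the contrast that chose the genes and are no support for them.

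Among the genes described above, the adjusted log2 difference was 2.48 for AT3G25680, 1.95 for AT5G44000, 1.71 for CRR41, 1.65 for FBL17 and 1.60 for Cpn60beta4. The fold change moved by over 1.5 times for 26 of the 61 genes, among them AT5G65490 at 1.58, AT1G01250 at 1.31 and AT1G32220 at 1.13. The adjusted difference was larger than before for 3 genes, AT4G31930 at 3.04, AT2G35390 at 1.70 and CML41 at 1.45, whose probes lie at places 92, 87 and 88, where the surrounding probes had median differences of -0.33, -0.39 and -0.40. At the other end, AT5G04600 had 0.28, AT3G44570 0.32 and AT3G04650 0.33, and their surrounding probes had medians of 0.73, 0.73 and 0.71. By role, the adjusted difference was 1 or more for 5 of the 8 plastid genes, 4 of the 7 genes of transcription, signalling and division, 4 of the 7 of metabolism and membranes, 2 of the 9 of RNA and protein synthesis and 13 of the 30 without a given role.

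Under the same rule on adjusted values, 31 genes would be chosen, the 23 and 8 others. The 8 were AT1G49850, AT1G22700, AT2G20920, AT4G01310, AT1G30700, AT2G25870, AT1G31220 and AT4G39690. Their log2 differences before the adjustment were 0.45 to 0.96, and all 8 probes lie where the surrounding probes had median differences below 0, from -0.61 to -0.21. For AT2G25870 this was 0.88 on the probe chosen. Another named probe of AT2G25870, at place 135, went the other way, with a difference of -0.606 before the adjustment. AT4G01310 is ribosomal protein L5 of the plastid.

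**Figure D5:**
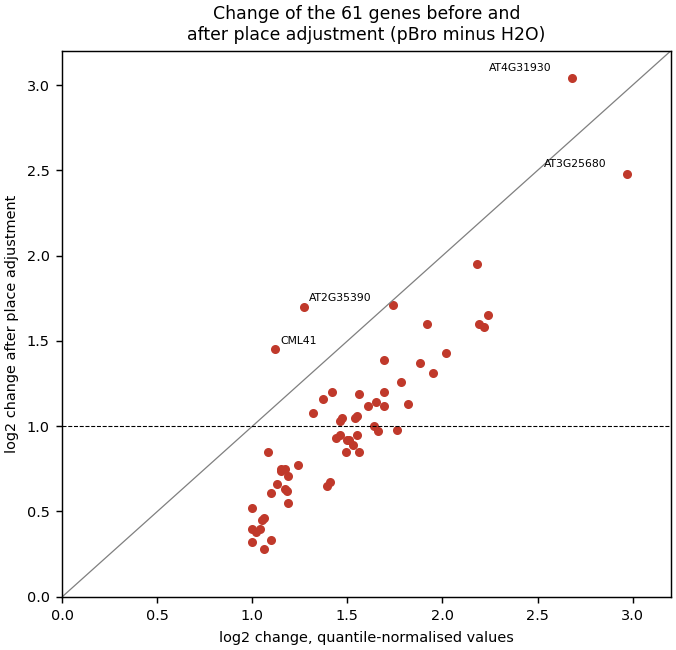
Each point is 1 of the 61 genes, with its log2 difference, bromoxynil minus water, on quantile-normalised values on the x axis and after place adjustment on the y axis; the grey line marks equal values and the dashed line a difference of 1. All points lie above 0, 28 lie at or above the dashed line, and AT4G31930, AT2G35390 and CML41 lie above the grey line.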

How the data were processed

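Relative intensities of 3439 probes on 12 arrays were used as the authors deposited them, on a linear scale. Scanning, background correction and any combining of spots are steps not given in the sources at hand. Of 692 probes with 1 gene in the platform annotation, 690 matched a locus by gene identifier in the RefSeq table of TAIR10.1, used for names and gene order only. Values were floored, taken as log2 and quantile-normalised, and fitted over all probes with limma 3.58.1 (lmFit and eBayes, Benjamini-Hochberg) in R 4.3.3, which was tested on simulated data. SEs are limma's, from the fit without a block and without averaging. They treat the arrays of a group as independent, although same-number arrays were correlated and consecutive numbers went in pairs for several genes. The precision may therefore be overstated. Place adjustment subtracted, per array, the median of probes within 6 places in the repeat of 288, then the median of each of 12 columns. Further alternatives were the deposited scale, centred medians, a pseudocount of 0.1, a filter on the dimmest 25%, the array number as a block, averaged consecutive numbers and 1 array less.

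The members, lists, roles and alternatives were chosen with earlier results of these data known. Genes given in full are the 10 with the largest difference, the 5 brightest with bromoxynil, 3 on each side of the threshold, and those whose name matched fixed words for a function. The tables hold few gene descriptions, so those words matched only Cpn60beta4 and CML41, and genes described by role beyond these were chosen after their values were seen. Correlations of same-number arrays (0.323 to 0.418) pair the numbers by the data, not the labels. The number of arrays limits the precision. Sequences were not used here. Python 3.11.15 with matplotlib 3.10.9 made the figures.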

Additional observations from a re-analysis of the deposited data

Results flagged for a closer look

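Of 122 groups of 6 arrays examined (61 genes, 2 groups each), 5 held a single array well outside the range of the rest, which happens by chance in about 5% of groups. All values here are normalised log2 intensities. AT3G25680 was at -0.25 on bromoxynil array 6, with the remaining 5 arrays at 0.18 to 0.39. AT5G41960 stood apart on array 2 of both groups, at -1.51 on bromoxynil array 2, against -0.77 to -0.33, and at -4.43 on water array 2, against -2.44 to -1.62. AT1G19490 was at -2.64 on water array 4, against -1.94 to -1.57. AT3G20920 was at -4.15 on water array 1, against -2.37 to -1.43.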

How the results depend on the processing

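Every one of the 61 genes kept a difference above 0 under all alternatives run in which its probe was measured (51 probes with the dimmest 25% left out), which the choice of genes without overlap fixes in part and which is no sign of stability. The rule chose 111 genes on the deposited scale, all 61 among them, where bromoxynil medians were higher by 0.46 (log2). It chose 53 with centred medians and 42 with a pseudocount, all among the 61, and 31 after place adjustment. The median difference of the 61, 1.47, was 1.83 on the deposited scale, 1.23 with a pseudocount and 0.97 after place adjustment, with or without averaging and replicate block. With the replicate block alone, 80 genes had every same-number difference above 0 and a mean of 1 or more. The block changed neither this count nor those of probes called higher by over 1.5 times. Named probes called higher by limma numbered 179, against 276 on the deposited scale, 103 with consecutive numbers averaged and 90 with place adjustment, averaging and block together. Over all probes these counts were 844, 1301, 518 and 451. Leaving out 1 array gave 59 to 70 genes by the rule, a median of 1.43 to 1.52, 164 to 180 named probes and 776 to 842 probes called higher. The causes of these shifts were not tested. Signal over background was not at hand for any probe, a limit that weighs on the dim ones.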
